A study of Homo sapiens with 12 samples.

Results

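The set described here is every ordered pair of protein domains in a recruitment library that holds at least 1 of 3 KRAB variants, P21506, M0QYP0 and Q3KP31. The names are protein accessions given in the files. P21506 is the zinc finger protein ZNF10, also called KOX1, whose KRAB domain is the one most used in synthetic repressors, and the other accessions are kept as the files give them. Members were chosen by name alone, as pairs whose first or second domain begins with the file's label for a human KRAB variant. They were 591 of the 9983 pairs with reads, and all 591 possible pairs were present. Of these, 126 joined a KRAB variant to a control domain, 456 to 1 of 76 other domains, and 9 to a KRAB variant. Pairs are written as domain 1 + domain 2, called first and second below.

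All libraries came from K562, a human chronic myeloid leukaemia line, carrying a reporter and a lentiviral fusion of rTetR, a DNA-binding protein that needs doxycycline, to the pair of domains. Cells of 2 replicates were infected separately at a coverage of about 600, selected with blasticidin for 7 days and given 1000 ng/mL doxycycline from day 8. The activation screen used K562 + pDY032 with 2 days of doxycycline. The repression screen used K562 + pJT039 with 5 days, and the memory screen, labelled as unused, K562 + pJT039 with 5 days of doxycycline and then 5 days without it. Each replicate gave a bound and an unbound fraction, 12 libraries in all. No source used here says how the fractions were separated, and bound was read as the cells with the reporter on. Every library is therefore a pool of cells of 1 line, and a pair's count does not tell few strongly changed cells from many weakly changed ones.

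The KRAB domain is the repression module at the N-terminus of the largest family of human zinc finger proteins. Canonical KRAB domains bind the corepressor TRIM28 (KAP1), which brings the methyltransferase SETDB1, HP1 proteins and the NuRD complex. The resulting methylation of histone H3 lysine 9 can outlast the recruiter, which is why KRAB fusions are used for lasting silencing. Some variant KRAB domains, such as that of ZN473, activate transcription instead.

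Libraries held 612999 to 55121999 reads, the shallowest being the activation unbound library of replicate 2 and the deepest the activation bound library of replicate 1. The median count of a KRAB pair ranged from 40 to 4299 over the libraries. KRAB pairs were 5.92% of the pairs with reads. They took 8.10 to 14.8% of the reads of the unbound libraries, 1.06 to 1.71% of the bound libraries of the activation and repression screens, and 4.51 to 5.37% of the bound memory libraries. M0QYP0 was the most abundant variant, with 371408 reads beside controls in the activation unbound library of replicate 1 against 113825 for P21506 and 113482 for Q3KP31. Values below are log2 of bound over unbound relative to pairs of 2 controls. The level of control pairs as a group is thus 0, and negative values mean fewer cells with the reporter on. The controls were 11 tiles of dystrophin (DMD) and 10 random sequences. Pairs of 2 controls had a median of -0.02 in the activation, 0.01 in the repression and 0.01 in the memory screen. Single control pairs were not all inert. In activation edgeR called 24 of 417 higher and 4 lower, in repression 2 of 416 higher and 27 lower. The scaling sets this 0: with total counts in place of control pairs, the median of all tested pairs moved from -0.35 to -1.42 in activation, from -1.98 to -0.13 in repression and from -0.40 to 0.10 in memory. Each screen had n = 2 replicates. The p-values measure the spread between 2 separately infected pools.

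Next to control partners, all 3 variants lowered the bound share in all 3 screens, most in the repression screen. P21506 held 577 CPM (counts scaled to the library total) in the bound and 3112 in the unbound repression library of replicate 1, and 341 against 3432 in replicate 2. Pairs of 2 controls went the other way, with 141084 against 69338 CPM and 162904 against 55293. Scores are log2 of bound over unbound reads, with a floor of 5 reads, minus the median of that ratio over single control pairs. They therefore cannot be read off the summed CPM of the control pairs. The scores were -4.34 and -5.12 for P21506, -4.46 and -4.97 for M0QYP0, and -4.10 and -4.76 for Q3KP31. The fitted effects were a 26.5-fold decrease for P21506 (log2 -4.73, SE 0.20), 26.3-fold for M0QYP0 (-4.72, SE 0.19) and 21.5-fold for Q3KP31 (-4.43, SE 0.18; edgeR quasi-likelihood adjusted p 1.4e-17 for P21506). Of the 79 domains that are not controls, 73.4% were called lower in this screen at an adjusted p of 0.05. The variants held the 3 lowest places, followed by tile 18 of ENSG00000100307, a silencer tile, at -3.81 and by SUMO3, a small ubiquitin-like modifier, at -3.80.

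In the memory screen, 5 days after doxycycline was withdrawn, the variants again had the 3 lowest values of 79. The scores were -2.43 and -1.82 for P21506, -2.09 and -1.496 for M0QYP0, and -1.63 and -1.62 for Q3KP31. The fitted decreases were 4.45-fold (log2 -2.15, SE 0.18), 3.53-fold (-1.82, SE 0.17) and 3.14-fold (-1.65, SE 0.16), all called by edgeR, as were 36.7% of the domains in this direction. The next domain was the same silencer tile, at -1.24, then CBX1, an HP1 protein, at -1.13. The difference between the memory and the repression screen was 2.58 (SE 0.25) for P21506, 2.90 (SE 0.24) for M0QYP0 and 2.78 (SE 0.23) for Q3KP31, with adjusted p from 2.5e-11 to 7.7e-10 in edgeR. This rise was shared with other domains: 60.8% of the 79 were called higher in memory than in repression, and 1.27% lower. All 3 variants therefore read nearer to control pairs after withdrawal, and still below them in both replicates.

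In the activation screen the effects were smaller. The scores were -1.32 and -1.12 for P21506, -0.96 and -1.15 for M0QYP0, and -1.33 and -1.19 for Q3KP31, and the fitted values -1.26 (SE 0.18), -1.08 (SE 0.17) and -1.30 (SE 0.16). All 3 were called, against 35.4% of the domains in this direction. No variant was called higher in any screen, where 30.4% of the domains were higher in activation, 5.06% in repression and 1.27% in memory. SUMO3 was slightly lower, at -1.31 (SE 0.16), and ID2 and CBX1 lay among the variants at -1.13 and -1.12. Without activation replicate 1, P21506 was -1.17 with an adjusted p of 0.061, and without activation replicate 2, M0QYP0 was -0.98 with an adjusted p of 0.053. The sign did not depend on the scaling, but the sizes did: with total counts the variants were at -2.15 to -2.36 in activation, -2.58 to -2.88 in repression and -1.15 to -1.65 in memory.

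The variants were then set against each other. None of their 9 pairwise differences beside controls was called (limma over all 3081 pairs of domains in a screen). P21506 and M0QYP0 differed by -0.01 in repression (95% interval -0.50 to 0.47), and P21506 and Q3KP31 by -0.30 (-0.79 to 0.18). The largest difference was that of P21506 minus Q3KP31 in memory, -0.50 (-1.02 to 0.02; adjusted p = 0.15 in limma), with replicate values of -0.81 and -0.20. In activation the differences ran from -0.17 (P21506 minus M0QYP0) to 0.21 (M0QYP0 minus Q3KP31). With the same partner in the same position, none of 549, 534 and 568 differences between variants was called in activation, repression and memory, and 46, 40 and 46 had an unadjusted p of 0.05 or less. These differences were counted once for each partner and position, so that most partners entered in both positions. All come from the same 2 replicates, so the counts below are not independent repeats of a difference between variants. In memory P21506 read below Q3KP31 in 150 of 191 (median -0.56, with medians of -0.90 and -0.29 in the replicates) and below M0QYP0 in 141 of 192 (median -0.42, with -0.33 and -0.55). The gap to Q3KP31 differed by position. Over all tested pairs the memory medians were -2.40 for P21506 and -1.55 for Q3KP31 as first domain, and -2.25 and -2.01 as second. Pairs with Q3KP31 first had median scores of -1.16 and -1.84 in the replicates. In repression P21506 read below M0QYP0 in 122 of 186 (median -0.35) and below Q3KP31 in 94 of 176 (median -0.08).

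The variants were next compared with 3 other silencers chosen for their roles: CBX1 (its chromoshadow domain; gene on chromosome 17, 48070059 to 48101478, GRCh38), SUMO3 (chromosome 21, 44805617 to 44818062) and YAF2, a subunit of Polycomb repressive complex 1 (chromosome 12, 42157104 to 42238248). In repression every variant was lower than each of CBX1, SUMO3 and YAF2. The gap ran from 0.63 (Q3KP31 against SUMO3, adjusted p = 0.015) to 1.08 (P21506 against YAF2, adjusted p = 2.3e-05). The replicate differences were -0.20 and -1.06 for the former, and -0.86 and -1.29 for the latter. In memory P21506 was lower by 1.03 than CBX1, 1.16 than SUMO3 and 1.20 than YAF2, with adjusted p of 0.011, 0.0066 and 0.011. M0QYP0 was also lower than all 3 in memory, by 0.69 to 0.86. Q3KP31 was lower than YAF2 (-0.69, adjusted p = 0.038), while its differences from CBX1 (-0.52, 95% interval -1.07 to 0.02) and SUMO3 (-0.65, adjusted p = 0.077) were not called. In activation the variants were lower than YAF2 by 0.56 to 0.77 and were not separated from CBX1 or SUMO3. All these p-values are limma's over every pair of domains. In repression 79.6% of all such pairs were called, in memory 23.9% and in activation 62.8%. These comparisons share domains and are not independent, and in repression limma gave all of them 1 common variance.

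Position had no called effect on any variant. With controls in the other position, P21506 had -4.87 (SE 0.27) as first and -4.62 (SE 0.30) as second domain in repression, M0QYP0 -4.83 (SE 0.21) and -4.33 (SE 0.26), and Q3KP31 -4.49 (SE 0.24) and -4.41 (SE 0.24). The largest shift in repression was that of M0QYP0, lower by 0.51 and 0.49 in the replicates when first (limma adjusted p = 0.20). In activation M0QYP0 was lower by 0.60 and 0.30 when first (adjusted p = 0.32). Q3KP31 in memory read -1.28 (SE 0.22) as first and -1.83 (SE 0.21) as second domain, with replicate differences of 1.05 and 0.05. Of the 79 domains, 0 were called for position by limma in any screen, so this comparison called nothing anywhere in the library with 2 replicates.

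Across all partners the KRAB pairs moved with the variants they hold. In repression 543 of the 550 tested pairs were lower than control pairs, where the same edgeR fit called 57.1% of all tested pairs lower. Their median was -4.63, against -1.98 for all pairs, and the middle of the distribution was narrow, with quartiles at -5.11 and -4.22. In memory 325 of 573 were called lower, against 7.03% of all pairs, with a median of -2.01 against -0.40. In activation 220 of 554 were called lower, against 10.5%, with a median of -1.26 against -0.35. No KRAB pair was called higher by edgeR or DESeq2 in any screen, where edgeR called 14.9% of all pairs higher in activation, 0.497% in repression and 0.257% in memory. None had an unadjusted p of 0.05 or less in that direction in edgeR. The memory count fell to 1 without replicate 1 and to 197 without replicate 2. The activation count fell to 16 and 40 when its replicates were left out, while the repression count stayed at 533 and 518. The medians moved less, to -1.81 and -2.24 in memory. DESeq2 called 306, 546 and 454 pairs lower in activation, repression and memory. Without DMD tile 31 among the controls, edgeR called 171, 543 and 317, with a median of -1.15 in activation.

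The number of called pairs and the median effect ranked the variants differently. M0QYP0, with the most reads, had 94 of 193 pairs called in activation and 142 of 196 in memory. P21506 had 63 of 183 and 111 of 191, and Q3KP31 63 of 184 and 75 of 192. The median effects were in another order, -1.37 for P21506, -1.10 for M0QYP0 and -1.42 for Q3KP31 in activation, and -2.33, -1.91 and -1.74 in memory. A total of 37 pairs were too shallow to test in activation, 41 in repression and 18 in memory. In all screens together 14 pairs were untested throughout, and 3 of them held HXA13, a homeodomain.

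Single pairs at the extremes show how wide the readings are. In repression the lowest called pairs with at least 5 reads in every library were the 3 same-domain pairs described further on, then P21506 + SCMH1 (the SAM domain of a Polycomb protein) at -6.25 (SE 0.72) and Q3KP31 next to a silencer tile at -6.20 (SE 0.80). P21506 + SCMH1 had 258 bound and 571 unbound reads in replicate 1 and 18 against 1500 in replicate 2, giving scores of -4.92 and -7.89. The highest called pairs were KMT2B + M0QYP0 at -1.98 (SE 0.71), M0QYP0 + CREM at -2.06 (SE 0.68), KMT2B + Q3KP31 at -2.36 (SE 0.78), GSX1 + M0QYP0 at -2.38 (SE 0.68) and WBP4 + Q3KP31 at -2.65 (SE 0.65). None of these 5 was called with total counts (-0.80 to -0.13) or with TMM over all pairs, where they ran from -0.67 to 0.00403, KMT2B + M0QYP0 being the one above 0. The CXXC zinc finger of KMT2B, the bZIP domain of CREM and the homeodomain of GSX1 are DNA-binding domains, and WBP4 gave a WW domain, which binds proline-rich peptides. Other tested pairs of these partners read lower, down to -4.30 for KMT2B, -6.83 for CREM, -4.75 for GSX1 and -5.77 for WBP4. ATF1, also a bZIP domain, ran from -6.72 to -3.08 over 3 pairs. A part of DNA binding in these readings was not tested.

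The 7 tested pairs not called in repression included all 3 with the SSXRD domain of SSX2, a cancer-testis protein, in the first position. They read 0.54 (SE 1.53) for SSX2 + M0QYP0, -3.72 for SSX2 + P21506 and -1.05 for SSX2 + Q3KP31, on 5 to 12 reads in their thinnest library. With SSX2 second, the same variants read -3.82, -4.90 and -4.73, and all 3 were called. The other 4 were M0QYP0 + HXA13 (-1.40), MPP8 + M0QYP0 (-3.01), Q3KP31 + KMT2B (-1.57) and Q3KP31 with a silencer tile.

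In activation the lowest called pair with that depth was P21506 + MPP8, with the chromodomain of a protein that binds methylated lysine 9 of histone H3, at -2.90 (SE 0.81; scores -1.86 and -4.00). It was followed by P21506 + P21506 (-2.77), by Q3KP31 with a silencer tile (-2.71), by Q3KP31 + DMD tile 131 (-2.66, SE 0.57) and by M0QYP0 + GSX1 (-2.57). A control tile is in this list, and the 63 tested pairs of a KRAB variant with a DMD tile ran from -2.78 to 0.16. In memory the lowest, by the same rule, were DPF1 + P21506 (-4.75, SE 0.80), P21506 + BTK (-4.61, SE 1.16), P21506 + CDYL2 (-4.43, SE 1.09; a chromodomain), DPF1 + Q3KP31 (-3.99, SE 0.66) and P21506 + DMD tile 182 (-3.96, SE 0.85). P21506 + BTK rested on 13 bound against 1047 unbound reads in replicate 1 and 51 against 410 in replicate 2.

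Whether an activating domain still raised the reporter beside a KRAB variant was examined with the 11 domains that, beside controls, were called higher by at least 1 in activation. Of these, 6 also lowered the reporter in repression by at least 1 and are called dual here. Values of a domain beside KRAB, here and below, come from counts summed over the 3 variants and both positions. M0QYP0, the most abundant variant, therefore weighs most in them. MYBA, the transactivation domain of a Myb-family factor, scored 4.47 and 4.25 beside controls and -1.60 and -1.71 beside KRAB variants. NCOA2, a nuclear receptor coactivator (chromosome 8, 70109782 to 70456446), scored 3.85 and 4.04 beside controls and -2.07 and -1.77 beside KRAB. FOXO3, a forkhead factor (chromosome 6, 108559825 to 108684774), went from 3.87 and 3.66 to -1.80 and -1.56. Tile 22 of ENSG00000179833 went from 3.62 and 3.46 to -1.72 and -1.73. In each case both replicates beside KRAB lay below control pairs and both beside controls far above them. The files do not pair tile identifiers with gene names.

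The change from control to KRAB partners was -6.02 (SE 0.33) for MYBA, -5.86 (SE 0.24) for NCOA2, -5.44 (SE 0.34) for FOXO3, -5.26 (SE 0.25) for that tile and -4.96 (SE 0.29) for ZN473. All 11 activating domains changed downward, the others by 1.79 (BTK, an SH3 domain) to 3.04 (CRTC2, a coactivator of CREB). They were chosen for high values beside controls, which are also the baseline of this change. Part of the downward shift is therefore set by the choice. The readings beside KRAB did not enter the choice. Of all 76 domains, 55.3% were called lower beside KRAB than beside controls in activation, and 0 higher at an adjusted p of 0.05 in edgeR. The change is tested against 0, so it includes the effect of the KRAB variants themselves. Without activation replicate 1 the number called lower was 24 in place of 42. All 6 pairs each of MYBA, NCOA2, FOXO3, ZN473, SMCA2 and the tile lay below 0, from -2.45 to -1.08. KIBRA, a WW domain of a Hippo pathway scaffold, was the activating domain with the widest members, from -1.89 (KIBRA + P21506) to 0.57 (P21506 + KIBRA, on 2 reads in its thinnest library).

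Beside KRAB, 4 of the strongest activators read below KRAB with control partners. Relative to KRAB variants with control partners, NCOA2 pairs were lower by a further 0.75 (SE 0.16; -0.98 and -0.62 in the replicates), the tile by 0.55 (SE 0.14), FOXO3 by 0.51 (SE 0.12) and ZN473 by 0.45 (SE 0.12). MYBA gave -0.48 (SE 0.18, adjusted p = 0.12 in edgeR). These 4 were all the partners called lower in this comparison, 5.26% of 76. Without either activation replicate, no partner was called. Among all partners, 3 were called higher (3.95%). They were DPF1, a subunit of the BAF chromatin remodelling complex (0.95, SE 0.19), and 2 silencer tiles, tile 18 of ENSG00000100307 (0.65, SE 0.11) and tile 47 of ENSG00000141644 (0.64, SE 0.13). Their KRAB pairs remained slightly below control pairs, at -0.22, -0.52 and -0.53.

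Few partners moved the KRAB reading in repression. Relative to KRAB with controls, the 76 partners had a median of 0.19, 5 were called higher (6.58%) and 0 lower in edgeR, with 2 lower at an unadjusted p of 0.05 or less. The SH3 and WW domains, which bind proline-rich peptides, ranged from -0.19 to 0.43 over 9 members, and the coactivator and transcription factor list from -0.01 to 0.52 over 8. MYBA and NCOA2 pairs with KRAB read -4.32 and -4.63 against control pairs, next to -1.34 and -1.29 for these domains beside controls. The HP1 and chromodomain list (CBX1, CDYL2, CHD3 and MPP8) ranged from 0.15 to 0.40, and the Polycomb list from -0.01 (SCMH1) to 0.83 (YAF2, adjusted p = 0.12). SUMO3 and HERC2 gave 0.34 and 0.10. No member of these lists was called by edgeR. DESeq2 called 9 partners higher in this screen.

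The partners called higher in repression were HXA13 (2.44, SE 0.39), KMT2B (1.88, SE 0.34), ZN597 (1.26, SE 0.27), ZFP28 (0.51, SE 0.13) and a silencer tile (0.48, SE 0.12). ZN597 and ZFP28 gave KRAB domains of the variant list, in which 2 of 6 members were called. The 6 KRAB pairs of HXA13 held 448 bound and 165 unbound reads in replicate 1 and 231 against 357 in replicate 2. Most of the bound reads belonged to M0QYP0 + HXA13, with 396 against 85 reads in replicate 1 and 205 against 171 in replicate 2. HXA13 + M0QYP0 read -6.25 on 3 reads in its thinnest library. KMT2B rested on 1937 against 722 and 348 against 1149 reads. The pairs with ZN597 first were ZN597 + M0QYP0 at -3.20, ZN597 + P21506 at -3.41 and ZN597 + Q3KP31 at -3.47, all called. M0QYP0 + ZN597 read -6.23 on 4 reads in its thinnest library, and the remaining KRAB pairs with ZN597 second were too shallow to test. Leaving DMD tile 31 out of the controls left 2 partners called higher.

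In memory 6 partners were called lower than KRAB with controls (7.89%) and 1 higher (1.32%). MPP8 was lowest, at -1.25 (SE 0.34), with -1.83 and -0.69 in the replicates. The chromodomain list otherwise gave -0.44 for CBX1, -0.48 for CDYL2 and 0.74 for CHD3, none of them called, so 1 of 4 members passed. The members behind MPP8 were M0QYP0 + MPP8 at -2.99 (adjusted p = 0.0054), P21506 + MPP8 at -2.64 and Q3KP31 + MPP8 at -3.23, and lower ones of -4.31 to -5.34 with MPP8 first, on 4 to 7 reads in their thinnest library. Tile 18 of ENSG00000100307 followed at -0.78 (SE 0.11; -0.84 and -0.72). This tile was higher than KRAB with controls in activation and lower in memory, and alone it was the next lowest domain after the variants in repression and memory. The others were 2 more silencer tiles, one of them tile 26 of ENSG00000130706 (-0.61, SE 0.16), and the WW domains of APBB1 (-0.53, SE 0.14) and ITCH (-0.49, SE 0.11), which were 2 of 9 in the SH3 and WW list. In that list the median was -0.38, against -0.15 for all partners. Its members ran from -0.53 to 0.60, the highest being KIBRA, also a WW domain. Among partners just outside the threshold were HERC2 (-0.72), DPF1 (-0.63), FOXO3 (-0.37) and PCGF2 (-0.45), with adjusted p of 0.051, 0.054, 0.064 and 0.064 in edgeR. On the same measure single DMD control tiles ran from -0.47 to 0.75 and random controls from -0.36 to 0.43. FOXO3 and PCGF2 thus lay within the range of controls, and ITCH and APBB1 only slightly below it. Without memory replicate 1, 2 partners were called lower, of which 1 was among these 6, the tile of ENSG00000100307 (-0.68). DESeq2 called 13.

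JDP2, a bZIP repressor of AP-1, was the partner called higher in memory (2.42, SE 0.36). Without memory replicate 1 it was 2.23 and not called (adjusted p = 0.066 in edgeR). Its 6 KRAB pairs held 638 bound and 670 unbound reads in replicate 1 and 733 against 323 in replicate 2. Its members ran from -2.39 (JDP2 + M0QYP0) to 2.21 (JDP2 + P21506), and none was called.

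The partner calls differed with each variant alone. With P21506 alone no partner was called in any screen, and with Q3KP31 alone none in activation. M0QYP0 alone gave 2 partners higher and 3 lower in activation, 1 higher in repression, and 6 lower and 0 higher in memory. Q3KP31 alone gave 2 higher in repression, and 4 lower and 2 higher in memory.

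The order of the domains was examined for each partner as the mean score of its 3 pairs with KRAB first minus that of its 3 pairs with KRAB second. The partners named next were chosen after their values were seen and no test was made. Over 66 partners with all 6 pairs tested in memory, this difference had quartiles of -0.40 and 0.25, and over 19 controls it ran from -0.84 to 1.08. DPF1 stood highest, at 2.68. With DPF1 first its pairs scored a mean of -5.34 and -3.06 in the replicates, and with KRAB first -1.16 and -1.88. KIBRA gave 2.11 and CHD3, a NuRD helicase whose DUF1087 domain was used, 2.05. With KRAB first, KIBRA pairs scored 0.15 and -0.53 and CHD3 pairs 0.09 and -0.58, and with KRAB second -2.50 and -2.09, and -2.44 and -2.17. In repression the same KRAB-first pairs were all called, from -3.94 to -5.33. Counts of 4 of the 6 KRAB-first pairs were at most 374 in any memory library, while M0QYP0 + KIBRA held 2417 bound against 7227 unbound reads in replicate 1 and 2204 against 2531 in replicate 2.

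In activation the order difference ran from -1.32 (ZFP28) to 1.32 (DPF1) over 62 partners and from -1.08 to 1.07 over 18 controls. DPF1 pairs read -0.91, -1.67 and -1.79 with DPF1 first and -0.02, -0.36 and 0.10 with KRAB first. In repression the median difference was -0.43 over 56 partners and -0.33 over 17 controls, below 0 beside controls too. SSX2 (-3.20), SCMH1 (-2.09) and WBP4 (-1.64) were lowest, where the lowest control was at -1.28.

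To ask whether the domains of a pair act independently on the log scale, each pair's score was compared with the sum of its domains' scores beside controls in the same positions. In repression 97 of 430 KRAB pairs lay above the sum (limma), where 6.76% of all pairs did, and 0 lay below, with 9 below at an unadjusted p of 0.05 or less. Of these 97, 87 had a silencing partner, out of 170 tested pairs with such a partner. Silencing partners were classed by low repression values beside controls, which also enter the sum, so part of this excess is set by the choice. The share over all pairs includes pairs without any silencing domain. The share for pairs of silencing domains without KRAB was not computed. The median score of the 170 was -4.50 where the sum was -7.30 and the stronger domain alone -4.62, and the median distance from the stronger domain was 0.04. Against the stronger domain instead of the sum, 0 pairs were called above. With 1 read added to each count in place of the floor, 0 of 430 were called above the sum. The median distance from the sum was still 0.95 there, against 1.08 with the floor. At an unadjusted p of 0.05 or less in limma, 188 and 193 pairs were above. The floor also limits how low a score can go: with the unbound reads at hand, the sum lay below the lowest score that 34 of the 430 pairs could reach, among them 12 of the 97, and those calls carry no information. With partners that were neither silencing nor activating, the score was -4.62 and the sum -4.87, and 1 of 187 was above.

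In activation 50 of 434 KRAB pairs lay below the sum, where 13.6% of all pairs did, and 16 above, where 5.45% did. Neither share of KRAB pairs was above that of all pairs. Dual partners gave 33 of 36 below, with a median score of -1.75 where the sum was 2.38 and the stronger domain 3.57. Activating partners gave 14 of 27 below, with -1.19 where the sum was 0.51. Both classes were chosen for high activation values beside controls, which also enter the sum, so part of this fall is set by the choice. The share for these partners in pairs without KRAB was not computed. Silencing partners gave 14 of 173 above and 0 below, with -0.99 where the sum was -1.74. In memory 0 of 450 pairs were called in either direction, and limma called 0 of all pairs, with 37 KRAB pairs above and 15 below at an unadjusted p of 0.05 or less. The median score there was -1.98 and the median sum -2.09.

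In repression the 6 mixed pairs read from -3.75 (P21506 + Q3KP31, SE 0.54) to -5.41 (M0QYP0 + P21506, SE 0.53), the range of single variants, where their sums were -8.81 to -9.45. For 3 of the 6, P21506 + M0QYP0, P21506 + Q3KP31 and Q3KP31 + P21506, the sum was lower than the floor of 5 reads allows at their depth, so it could not be tested. The other 3 were called above the sum by limma (adjusted p = 0.043). For Q3KP31 + M0QYP0 among them, the lowest score within reach was -8.91 and the sum -8.81, so its call carries little information. These 3 pairs were not called with 1 read added in place of the floor, where 0 of all 430 KRAB pairs were. The 3 same-domain pairs were lower, P21506 + P21506 at -6.60 (SE 0.81), M0QYP0 + M0QYP0 at -6.54 (SE 0.87) and Q3KP31 + Q3KP31 at -6.61 (SE 1.04). Their replicate scores were -6.63 and -6.57, -6.53 and -6.55, and -6.03 and -7.23. In activation the same-domain pairs were at -2.77, -2.49 and -2.52 and the mixed pairs at -0.75 to -1.998. Same-domain pairs of controls also read low in repression, with median scores of -1.27 and -0.53 in the replicates over 21 pairs. In activation these control pairs had -0.71 and 0.56. The part of same-domain pairing in these values was not tested.

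In memory the mixed pairs ranged from -0.64 (Q3KP31 + M0QYP0) to -2.51 (P21506 + Q3KP31), and 3 of the 6 were called. The same-domain pairs went opposite ways in the replicates: 0.37 and -3.59 for P21506, 0.87 and -2.89 for M0QYP0, and 1.77 and -3.27 for Q3KP31. Same-domain pairs of controls were also higher in replicate 1, with a median of 3.33, and lay around 0 in replicate 2, with a median of -0.02. The unbound memory library of replicate 1 held 1.33% of its reads in same-domain pairs, against 6.26 to 24.8% in the other libraries. The mean memory values of the 3 same-domain KRAB pairs, -1.64, -1.04 and -0.79, therefore rest on replicates that stand apart. No other KRAB pair holds the same domain in both positions, and the summed values beside controls contain none.

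The memory minus repression difference of single pairs followed that of the variants. Of 547 KRAB pairs tested in both screens, 406 were called higher in memory and 0 lower, where 41.9% of all pairs were higher and 0.604% lower. The median difference was 2.65 over all KRAB pairs, 2.83 with control partners, 2.47 with silencing partners and 2.46 with dual partners. At the level of single pairs it ran from -1.31 to 6.76. Beside KRAB, 89.5% of the 76 domains were called lower than beside controls in repression and 92.1% in memory. These shares include the effect of the KRAB variants themselves. The 8 exceptions in repression were all of the silencing class: YAF2 changed by -0.19 (SE 0.35), SUMO3 by -0.54 (SE 0.39), CBX1 by -0.63 (SE 0.40) and CDYL2 by -0.71 (SE 0.41), among others. That class was chosen for low repression values beside controls, the baseline here, so smaller changes in it were set in part by the choice. In memory CBX1, CDYL2 and YAF2 were called, with changes of -1.17, -1.62 and -1.39, and SUMO3 was not (-0.27, SE 0.38). SUMO3 pairs with KRAB read -1.24 in memory, next to -0.997 for SUMO3 beside controls.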

How the data were processed

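The deposited raw counts are read pairs per ordered domain pair, obtained after the authors trimmed 30 bases from each end and aligned each position with Bowtie2, per the labels (no source used here names its version). No molecular identifiers are stated, and 33 PCR cycles were used, so errors cover counting and replicate spread only. A pair was tested if each replicate had 5 or more reads in one of the fractions and 50 or more over both. edgeR 4.0.16 (R 4.3.3; quasi-likelihood) fitted all 12 libraries together, blocking on the screen and replicate, since the labels score bound over unbound within a replicate. Libraries were scaled by trimmed means over pairs of 2 controls. Standard errors came from the F statistic, and Benjamini-Hochberg adjusted p at or below 0.05 were called. Scores used a floor of 5 reads, and their differences were tested with limma 3.58.1 against 0. The labels state 10 DMD tiles and 20 controls, while the names give 11 and 21, all of which were used. The labels also say that 6 repressors were discarded without naming them, so none was left out. Domains were classed as activating, silencing or dual from a called effect of at least 1 or at most -1. Gene names and coordinates came from a RefSeq table (GRCh38), in which 39 domains matched. Alternatives were total counts, TMM over all pairs, DESeq2 1.42.0, other controls, no replicate block, other filters, and each replicate left out. Python 3.11.15 with pandas 2.3.3 and numpy 2.4.6 prepared the tables. The fits were also run on simulated counts with a common spread for all pairs. Those runs do not cover the differences in replicate agreement between pairs and screens seen here. The members, lists and tests were chosen with earlier results of these data known. The extreme pairs were taken from those called per screen with at least 5 reads in every library and one sign in both replicates. The 5 lowest are given for each screen and the 5 highest for repression only. Called partners followed the same rule without the read minimum. Pairs of 2 KRAB variants were described as well. Other pairs and partners named lie outside these rules.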

Additional observations from a re-analysis of the deposited data

Results flagged for a closer look

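The effect of each KRAB variant beside controls differed between the repression screen and the memory screen, which used the same reporter line at different times. The difference, memory minus repression, was 2.58 for P21506, 2.90 for M0QYP0 and 2.78 for Q3KP31 on the log2 scale, and each was called by edgeR's contrast of both screens. Under total counts the differences were 1.23, 1.55 and 1.43, all called. Groups of 2 replicates are too small for a test of single outlying samples.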

How the results depend on the processing

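Of the alternatives to the results that answer a comparison, 363 kept direction and call, 2 lost the call and 49 moved a count by over 1.5 times, 35 of these being counts of partners beside KRAB. The single-variant effects kept their sign in all 12 settings, and lost the call in activation for P21506 without replicate 1 (-1.17; -1.35 without replicate 2) and M0QYP0 without replicate 2 (-0.98; -1.19 without replicate 1). The replicate block is the study's own pairing: with no replicate block P21506 read -4.66 in repression, and 204, 541 and 323 KRAB pairs were called lower in activation, repression and memory. Called pairs numbered 478 in activation and 165 in memory with total counts, and 181 in memory with TMM over all pairs, under which KMT2B + M0QYP0 read 0.00403 in repression. Leaving out a replicate gave 16 to 40 pairs in activation and 1 to 197 in memory. Without memory replicate 2 the same-domain pairs read 0.85 (M0QYP0), 0.35 (P21506) and 1.74 (Q3KP31), and without replicate 1 -2.92, -3.62 and -3.30.

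The partner calls beside KRAB were the least stable. Total counts measure these pairs against the library rather than against KRAB with controls, so 0 were higher in all screens and 74, 74 and 70 lower. The partners called higher then read -1.63 and -1.62 (tiles) and -1.31 (DPF1) in activation, and -2.34 (a tile), -2.32 (ZFP28), -1.56 (ZN597), -0.94 (KMT2B) and -0.39 (HXA13) in repression. TMM over all pairs gave 2 higher in repression and 1 lower in memory. DESeq2 gave 5, 9 and 2 higher and 13 lower in memory. Without DMD tile 31, 2 were higher in repression and 3 lower in memory, and with no replicate block 3 lower in memory. P21506 alone gave 0 in every case. M0QYP0 alone gave 1 higher in repression and 0 in memory, and Q3KP31 alone 0 in activation and 2 higher in repression and memory, with ZFP28 at -0.10. Leaving out replicates gave 0 in activation either way, 4 to 9 higher and 0 to 3 lower in repression, and in memory 0 to 2 higher and 2 to 6 lower. The change to KRAB partners in activation was called for 24 to 30 domains when a replicate was left out.

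Against the sum, 1 read added gave 0 pairs called above in repression, with a median distance of 0.95 in place of 1.08. The stronger domain gave 0 called above in repression and 1 in activation. Median domain scores gave 32 called below in activation and 165 above and 3 below in repression. The cause of these shifts was not tested. Depth limits the pairs with few reads, above all in activation unbound replicate 2, where the median KRAB pair held 40.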
